A study of Glycine max with 36 samples.

Results

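The comparison described here is that of soybean leaflets 8 h after an atrazine spray with leaflets 8 h after a water spray. Plants of cultivar Williams 82 at the V1 stage, about 2 weeks old, were grown in a greenhouse at 25 °C with 16 h of daylight, and the 3 leaflets of the first trifoliate leaf were pooled. The atrazine plants and the bentazon plants received a mist at 22 to 25 mM, a range the labels give for both herbicides alike, and the water plants received water with the adjuvant Herbimax (1% by volume). The labels record adjuvant for the water spray alone, so that effects of adjuvant, dose and herbicide cannot be told apart. RNA of 12 kinds (atrazine, bentazon and water at 1, 2, 4 and 8 h) was hybridised in a closed loop of 36 two-colour cDNA arrays, 3 biological replicates of 12 pairings. Atrazine and water RNA of 8 h never met on one array. The difference between them was obtained through bentazon RNA of 8 h, from 6 of the 36 arrays: 3 that paired bentazon with atrazine and 3 that paired water with bentazon. For each replicate number the effect is minus the sum of the 2 log ratios of the arrays of that number. Of 19200 probes on the array, 18156 had such a sum in at least 2 replicates, 16767 of them in all 3 and 1389 in 2.

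Atrazine, a triazine, and bentazon, a benzothiadiazinone, both occupy the plastoquinone-binding pocket of the D1 protein and so stop electron flow out of photosystem II. Light that can no longer drive transport then leads to excited chlorophyll, singlet oxygen and peroxides in the chloroplast, and to a shortage of reducing power and sugar. Soybean leaves detoxify bentazon by hydroxylation and attachment of glucose and tolerate it in the field, whereas they have little capacity to detoxify atrazine. Antioxidant enzymes, antenna proteins, lipoxygenases that oxidise membrane lipids, and enzymes of phenolic and carbon metabolism are therefore the gene groups of interest in such leaves.

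The deposited values are log ratios between the 2 RNAs of an array and hold no level of any transcript, so the tissue label could not be checked against leaf markers. Fewer cells of a type and less RNA per cell cannot be told apart in pooled leaflets. The sources used here do not say which RNA stood in the numerator. All values below read a title as the first-named over the second-named RNA, so that a positive value lies on the side of atrazine if that reading holds, and every sign turns with the other reading. Positive and negative therefore name sides, not higher or lower abundance. The values are taken as log2, since the base is not given either. The 6 arrays held between 17646 and 18418 values. Over all probes the replicate sums correlated at 0.629 between replicates 1 and 2, at 0.397 between replicates 1 and 3 and at 0.477 between replicates 2 and 3. The bentazon against atrazine array of replicate 3 was the widest of its type, with an SD of 0.744 against 0.5 and 0.519 in replicates 1 and 2. It received the lowest of the 3 array weights that limma estimated, 0.352 against 4.29 and 1.1. The labels call the repeats biological without saying whether they came from separate sowings, so p-values measure the spread between these samples.

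Because the sum of 2 arrays contains a probe's dye bias 2 times, the whole loop of 36 arrays was modelled, and each probe received 11 differences between RNAs plus a single dye term. The model covered the 17062 probes with at least 2 values in each of the 12 pairings, of which 17042 are among the 18156. A difference counts as called below where limma's p, adjusted after Benjamini and Hochberg over all 17062 probes, was at most 0.05. Atrazine differed from water at 8 h for 1995 probes, or 11.7% of those tested. Of these, 962 lay on the positive side (5.64%) and 1033 on the negative side (6.05%). The median size of a called difference was 1.22 log2 units, and 1417 called probes (8.31%) differed by at least 1 log2 unit, 627 positive (3.67%) and 790 negative (4.63%). Differences of at least 2 log2 units were called for 276 probes (1.62%). The smallest called difference was 0.50 and the extremes were 6.17 and -5.27, whereas the median over all tested probes was 0.03. The standard error of a probe had a median of 0.286.

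The calls rest on the same arrays as the 3 replicate sums, and the sums carry most of the weight of the model, so the sums describe the calls and do not check them. Among 1964 called probes with all 3 sums, 1881 (95.8%) had the 3 sums on 1 side of 0, against 38.3% of 14167 uncalled probes and 45.3% of all 16131. The mean of the direct sums differed from the model by over 0.5 for 43 called probes. The replicates did not contribute equally in size: among called probes the median absolute sum was 1.25 in replicate 1, 1.37 in replicate 2 and 1.05 in replicate 3. Without replicate 1 the call count was 655, without replicate 2 it was 831 and without replicate 3 it was 2056. The dye term was called for 349 probes (2.05%), of which 46 were also called for atrazine against water.

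**Figure D1:**
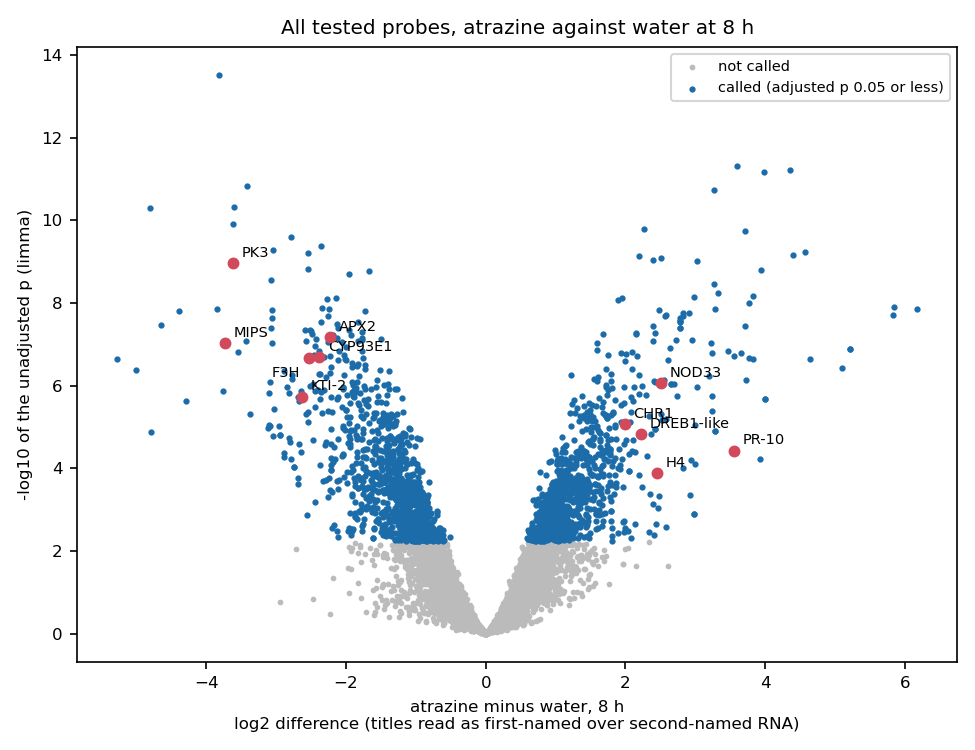
Each point is 1 of the 17062 tested probes, with atrazine minus water at 8 h (log2) across and minus log10 of the unadjusted limma p upwards. The 1995 called probes are blue and spread to both sides, to 6.17 and -5.27, with the 11 labelled genes in red.

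Gene names were available for few probes. The annotation gave 1 gene to 1158 probes and several to 13. Of the tested probes, 780 (4.57%, 368 genes) carried a symbol that is more than a placeholder. Of these 780, 150 (19.2%) were called, 53 positive and 97 negative, from 88 genes. That share is above the 11.7% of all tested probes. The gene lists below hold only probes with a gene, so a list share above 11.7% does not by itself set a list apart. A further 42 called probes carried only a placeholder and 1803 had no gene listed. Probes are cDNAs, on which transcripts of related family members can hybridise together.

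On the positive side the defence gene PR-10, which encodes a small pathogenesis-related protein of the ribonuclease-like class, had the largest named difference. Its replicate sums were 2.45, 4.40 and 3.30, with a mean of 3.38 ± 0.979 (SD, n = 3). The model gave 3.56 ± 0.739 (SE, adjusted p = 0.00133), and its other probe stood at 3.92 and was called too. The nodulin gene NOD33, named from root nodules, had sums of 2.13, 2.39 and 3.47. Its model value was 2.51 ± 0.412 (adjusted p = 8.65e-05), and both other probes were called on the same side at 1.63 and 1.74. The histone gene H4, whose protein is a core part of the nucleosome, had sums of 1.67, 2.74 and 3.33 and a model value of 2.45 ± 0.564 (adjusted p = 0.00327). The genes with the largest differences were chosen among probes with all sums on the side of the model, so that a shared sign of the sums is no result. The probes of PR-10, NOD33 and H4 whose sums are given above kept their calls in every alternative setting in which they were tested. Another H4 probe, named for its difference between the herbicides, lost its call without replicate 1 (2.59, adjusted p = 0.0536). Over all probes of these genes, NOD33 had 2 of 3 called without replicate 2, and H4 had 3 of 5 called without replicate 1 or 2. For H4, 4 of 5 probes were called positive, while the remaining probe stood at -0.26 without a call.

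Of the other positive genes among the 12 with the largest differences, DREB1-like, a transcription factor of the family that binds dehydration-responsive elements, had sums of 2.11, 4.17 and 0.74 and a model value of 2.22 ± 0.434 (adjusted p = 0.000651). Replicate 2 was the highest and replicate 3 the lowest, and without replicate 2 the value was 1.5 and no longer called (adjusted p = 0.0812). Its 3 other probes lay between -0.38 and -0.04, uncalled. CHR1, a chalcone reductase that diverts flavonoid synthesis to deoxy forms, had sums of 2.66, 2.84 and 1.61 and a model value of 1.99 ± 0.376 (adjusted p = 0.000433). This was kept in every setting run, but the 4 other CHR1 probes lay between -0.48 and 0.46 without a call. SRC1, known as a cold-responsive gene of soybean, had sums of 1.66, 1.97 and 1.06 (model 1.86 ± 0.448, adjusted p = 0.00494), with its other probe at 1.63. XET1, a xyloglucan endotransglycosylase that rejoins wall polymers, had sums of 2.48, 1.58 and 1.05 (model 1.68 ± 0.387, adjusted p = 0.00332), and its other probe was called at 1.28. In all of CHR1, SRC1 and XET1 replicate 3 was the lowest. Without replicate 1, SRC1 stood at 2.01 (adjusted p = 0.0993) and XET1 at 1.23 (adjusted p = 0.228), neither called.

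The vegetative lipoxygenase gene VLXB was spread widely. Its sums were 2.87, 1.87 and 0.35, and the model gave 1.71 ± 0.369 (adjusted p = 0.00183). The call was lost without replicate 1 (1.21, adjusted p = 0.146) or replicate 2 (1.66, adjusted p = 0.0587), and its other probes stood at -0.10 and -0.76, uncalled. GF14C, a 14-3-3 protein that binds phosphorylated partners, had sums of 0.89, 2.41 and 1.26 and a model value of 1.49 ± 0.323 (adjusted p = 0.00196), kept in every setting. DR1 was even, with sums of 1.28, 1.51 and 1.37, an SD of 0.115 and a model value of 1.36 ± 0.29 (adjusted p = 0.00169). CP3 had sums of 0.84, 1.93 and 0.69 (model 1.28 ± 0.273, adjusted p = 0.00178). Without replicate 2, DR1 stood at 1.28 (adjusted p = 0.0621) and CP3 at 0.94 (adjusted p = 0.125), and with the direct arrays alone CP3 stood at 1.15 (adjusted p = 0.0557).

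SALI5-4A, an aluminium-induced gene of soybean, was the 1 gene of 102 with at least 3 tested probes that was called on both sides. The probe among the 12 had sums of 0.67, 1.30 and 0.68 and a model value of 1.26 ± 0.283 (adjusted p = 0.00268), which missed the threshold in the absence of replicate 2 (1.21, adjusted p = 0.0801) and when only direct arrays were used (0.88, adjusted p = 0.0929). Of its 7 other probes 4 were called negative, between -1.07 and -2.16, so the symbol has no single side here.

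On the negative side the largest named difference was that of MIPS, myo-inositol-phosphate synthase, which converts glucose 6-phosphate into the precursor of inositol. Its replicate sums were -3.74, -4.96 and -2.16, with a mean of -3.62 ± 1.40 (SD, n = 3). The model gave -3.73 ± 0.542 (adjusted p = 1.62e-05), which as log2 is a 13.3-fold difference. All 4 MIPS probes were called, between -2.77 and -3.73, and all 4 remained called with any one replicate left out. The protein kinase gene PK3 had sums of -4.04, -5.18 and -3.03 and a model value of -3.61 ± 0.424 (adjusted p = 8.52e-07). Its other probes were far smaller, at -0.89 (called) and -0.63 (uncalled), and 1 of 3 PK3 probes was called without replicate 1 or 2. KTI-2, a Kunitz trypsin inhibitor, had sums of -1.76, -3.06 and -2.25 and stood at -2.63 ± 0.451 (adjusted p = 0.00014). For MIPS, PK3 and KTI-2 replicate 2 lay farthest from 0, and the 3 named probes kept their calls in every setting.

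Flavonoid, lipoxygenase and triterpenoid genes followed. F3H, flavanone 3-hydroxylase, had sums of -2.52, -3.90 and -1.76 and a model value of -2.53 ± 0.381 (adjusted p = 2.9e-05), with 7 of its 9 probes called negative and none positive. The lipoxygenase gene LOC547835 (loxA) had sums of -2.06, -2.50 and -2.12 and a model value of -2.51 ± 0.416 (adjusted p = 9.43e-05). Its 6 probes lay between -1.84 and -2.68, and all 6 were called, also with any one replicate left out. LOX2, another lipoxygenase, had sums of -1.77, -2.24 and -2.48 and stood at -2.21 ± 0.423 (adjusted p = 0.000518), while its other probe was uncalled at 0.28. CYP93E1, the cytochrome P450 that oxidises beta-amyrin on the way to soyasaponins, had sums of -2.01, -2.00 and -1.32 and a model value of -2.38 ± 0.360 (adjusted p = 2.84e-05). That value lies farther from 0 than any of the 3 sums, and the dye term of the probe was itself called (-0.30, adjusted p = 0.0441). AMS1, the beta-amyrin synthase ahead of CYP93E1, had sums of -1.35, -1.95 and -0.96 and stood at -1.82 ± 0.320 (adjusted p = 0.000193), with 2 of 3 probes called for each gene. The third AMS1 probe was at 0.89 and the third CYP93E1 probe at -0.15, both uncalled. Without replicate 1, AMS1 and CYP93E1 each had 1 of 3 probes called. COPZ1, a coatomer subunit of vesicle transport, had sums of -2.69, -2.99 and -1.07 (model -2.22 ± 0.493, adjusted p = 0.00233) and lost its call without replicate 1 (-2.01, adjusted p = 0.0966).

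**Figure D2:**
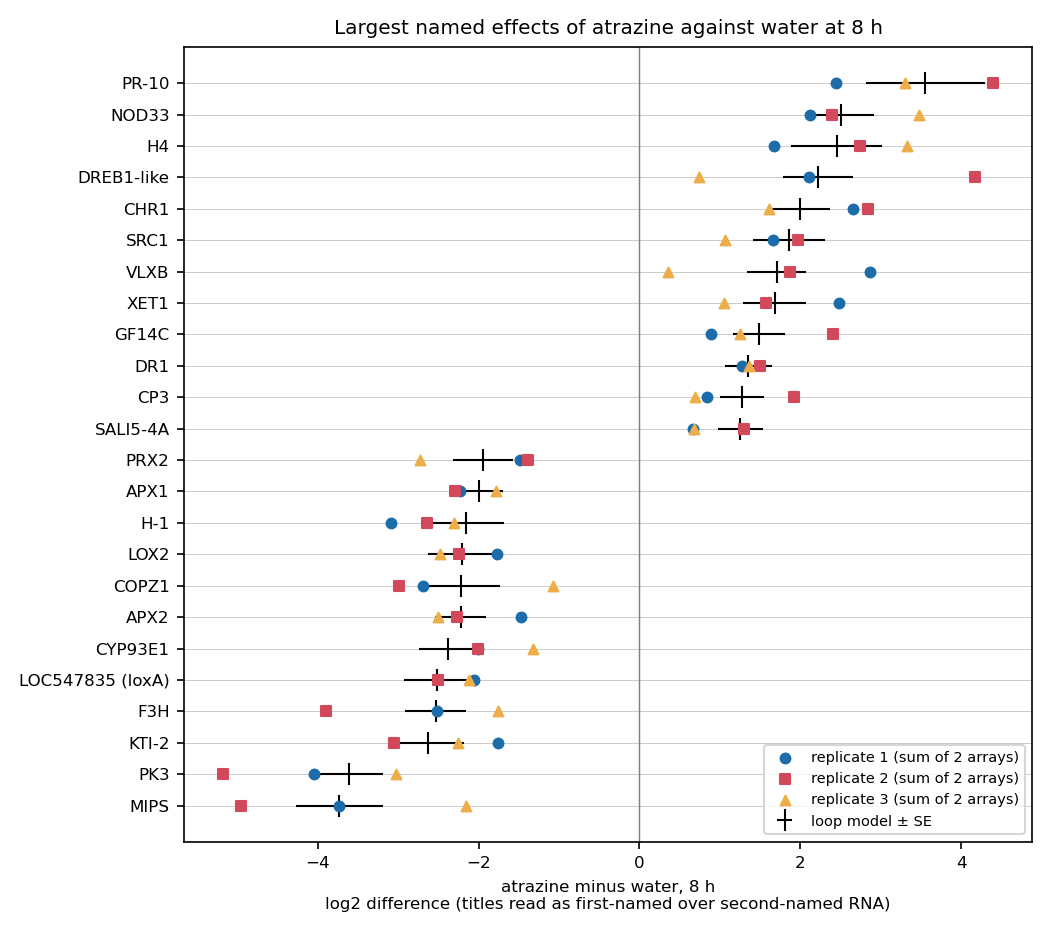
The 24 named genes with the largest called differences, 12 on each side, with the sum of 2 arrays for each of 3 replicates (coloured points) and the loop model with its standard error (black), in log2 units of atrazine minus water at 8 h. By the rule that chose the genes, all 3 points of each lie on 1 side of 0, and replicate 3 is the closest to 0 for DREB1-like, VLXB, COPZ1 and MIPS.

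Of the 102 genes with at least 3 tested probes, 60 had no call, 28 had some calls on 1 side and 13 had all, or all but 1, of their probes called on 1 side. Besides MIPS, NOD33, H4, LOC547835 (loxA), PK3, CYP93E1 and AMS1, these were APX1, CAB3, IFR2, CYP97B2, IMPDH1 and LOX7. IMPDH1, IMP dehydrogenase of purine synthesis, had sums of 1.19, 1.42 and 1.13 and a model value of 0.95 ± 0.243 (adjusted p = 0.00826), with 2 of 3 probes called. No IMPDH1 probe was called without replicate 1 or without replicate 2, where the named probe stood at 1.05 (adjusted p = 0.0665) and 0.81 (adjusted p = 0.157). How many probes of a gene hold the same cDNA is not given in the sources used here, so they are not independent measurements.

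The antenna genes found among annotated probes were CAB3 and LOC547819 (LHCP), whose proteins bind chlorophyll a and b. Others may lie among the 18029 probes of the array without a gene. LOC547819 (LHCP), outside the naming rule, had 1 probe, uncalled at 0.31 (adjusted p = 0.498). The named probe of CAB3 had sums of -1.02, -1.31 and -2.81, and the model gave -1.84 ± 0.284 (adjusted p = 4.07e-05). Replicate 3 lay farthest from 0, but 5 of the 6 CAB3 probes were called negative in the full data and also without replicate 1, 2 or 3, and their median without replicate 3 was -1.17. The list of light harvesting and light reactions held 10 tested probes, of which these 5 of CAB3 were called negative, 0 positive and 5 not at all by limma (50% called, against 11.7% of all tested probes), with a median of -0.83 (at an unadjusted p under 0.05, 1 was positive and 5 negative). PSAD, a subunit of photosystem I, had sums of 0.84, 1.03 and -0.42 and was uncalled at 0.86 (adjusted p = 0.0866), though called without replicate 3 (1.22, adjusted p = 0.0205). Among 15 probes for chlorophyll, tocopherol and light stress 1 was called (6.67%, against 11.7% of all tested probes): CHLH, the magnesium chelatase subunit that starts chlorophyll synthesis, at -1.21 ± 0.404 (adjusted p = 0.0464). Its sums were -0.21, -1.87 and -0.79, and the call was lost without any one replicate, at -1.59, -0.69 and -1.35 without replicates 1, 2 and 3 (adjusted p = 0.119, 0.331 and 0.0818). HPPD, which makes the head group of tocopherol and plastoquinone, had sums of 1.23, 1.15 and 0.00 and was uncalled at 0.76 (adjusted p = 0.145), but called at 1.23 without replicate 3 (adjusted p = 0.0114).

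Probes of ascorbate peroxidase, of 2 peroxidase genes and of ferritin were called negative, and 1 probe each of superoxide dismutase and catalase positive. Of 28 tested probes for peroxide and superoxide removal and ferritin, 8 were called negative and 2 positive (35.7% called, against 11.7% of all tested probes), with a median of -0.07 against 0.03 over all tested probes. The ascorbate peroxidase gene APX2 had sums of -1.47, -2.26 and -2.50 and a model value of -2.22 ± 0.318 (adjusted p = 1.42e-05). APX1, of the same cytosolic enzyme family, had sums of -2.23, -2.29 and -1.78 and stood at -2.00 ± 0.305 (adjusted p = 3.09e-05), with 3 of 4 probes called. The peroxidase genes PRX2 (-1.49, -1.38 and -2.73) and PRX2B (-1.64, -1.01 and -2.01) had model values of -1.95 ± 0.376 and -1.88 ± 0.324 (adjusted p = 0.000562 and 0.000142). The second PRX2B probe was called at -1.72 and the second PRX2 probe was not, at -0.13. Calls of APX1, APX2, PRX2 and PRX2B were kept in every setting run. H-1, a ferritin that stores iron, had sums of -3.09, -2.65 and -2.30 and stood at -2.15 ± 0.464 (adjusted p = 0.0018), but at -1.95 without replicate 1 it was no longer called (adjusted p = 0.0663). The other H-1 probe was uncalled on the other side, at 0.235.

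The 2 positive calls in that list were SODB, an iron superoxide dismutase, and CAT5, a catalase. SODB had sums of 1.22, 1.27 and 0.65 (model 1.06 ± 0.323, adjusted p = 0.0273), and CAT5 had sums of 1.19, 0.86 and 0.75 (model 0.73 ± 0.235, adjusted p = 0.0394). Both lost their calls without replicate 1 (1.03 and 0.59, adjusted p = 0.131 and 0.386) or replicate 2 (0.83 and 0.74, adjusted p = 0.294 and 0.236). The 8 negative calls of the list became 7, 8 and 9 without replicates 1, 2 and 3, and the 2 positive calls became 0, 0 and 4. GLXI, glyoxalase I, was uncalled at 0.77 (adjusted p = 0.116), but called at 1.05 without replicate 3 (adjusted p = 0.0248).

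Detoxification genes were covered by 3 lists. Of 27 glutathione transferase probes, whose enzymes attach glutathione to electrophiles, 1 was called on each side and 25 were not (7.41% called, against 11.7% of all tested probes), with a median of 0.03. LOC547581 (GSTU21) stood at -1.23 ± 0.265 (sums -1.30, -1.98 and -0.67, adjusted p = 0.00174), while its 3 other probes lay between 1.02 and 1.30, uncalled. LOC547583 (GSTU18) stood at 1.13 ± 0.281 (sums 1.38, 0.33 and 0.78, adjusted p = 0.00627). Leaving out replicate 2 removed the call of LOC547581 (GSTU21) (-0.93, adjusted p = 0.151), and leaving out replicate 1 removed that of LOC547583 (GSTU18) (0.94, adjusted p = 0.189). The largest uncalled difference was that of GST24, at 0.78 (adjusted p = 0.133), chosen among probes of genes without a call. Of 22 cytochrome P450 probes 3 were called negative and 2 positive (22.7%, against 11.7% of all tested probes and 19.2% of those with a gene symbol), with a median of -0.06. The negative ones were the 2 CYP93E1 probes, down to -2.38, and CYP98A2. The positive ones were probes of CYP97B2, of a family that hydroxylates carotenoids (0.79 ± 0.218, sums 0.50, 0.60 and 0.52, adjusted p = 0.0152), and both lost their calls without replicate 1 or 2. The named probe then stood at 0.86 and 0.70 (adjusted p = 0.134 and 0.213).

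Of 8 probes for glycosyltransferases, which attach sugars, and the ABC transporter PDR12, 1 was called, a share of 12.5% that is near the 11.7% of all tested probes: IF7GT, an isoflavone 7-O-glucosyltransferase, with sums of 0.09, -0.74 and -0.82 and a model value of -0.85 ± 0.286 (adjusted p = 0.0495). It was lost without any one replicate, at -1.21, -0.74 and -0.59 without replicates 1, 2 and 3 (adjusted p = 0.0902, 0.241 and 0.278). UGT1 was uncalled at -0.60 (adjusted p = 0.546) but stood at -1.45 without replicate 3 (adjusted p = 0.0115). PDR12 had sums of -0.17, 0.70 and 0.98 and was uncalled at 0.46 ± 0.587 (adjusted p = 0.686).

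Of 84 probes for phenylpropanoid and flavonoid enzymes 19 were called negative, 2 positive and 63 not (25% called, against 11.7% of all tested probes, of which 6.05% negative), with a median of -0.19. Beside the 7 calls of F3H there were 4 of IFR2, isoflavone reductase (named probe -1.22 ± 0.346, sums -2.08, -1.37 and -1.55, adjusted p = 0.0176). Flavonol synthase FLS1 had 3 (named probe -1.31 ± 0.3, sums -1.77, -2.61 and -0.50, adjusted p = 0.00327), and chalcone isomerase CHI1A had 2 of 8 (-1.30 ± 0.260, sums -1.59, -1.38 and -1.44, adjusted p = 0.000831). 4CL4, a 4-coumarate:CoA ligase at the entry of the pathway, stood at -1.71 ± 0.301 (sums -1.81, -1.77 and -0.50, adjusted p = 0.000184) and kept its call in every setting. CYP98A2, which hydroxylates the coumaroyl ring, was at -0.99 ± 0.292 (sums -1.28, -1.78 and -0.96, adjusted p = 0.0234), while its other probes lay between -0.41 and 0.46, uncalled. On the positive side were CHR1 and CHI4A, a chalcone isomerase family member (1.07 ± 0.255, sums 1.03, 1.94 and 1.24, adjusted p = 0.00456).

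The list had 4 negative and 2 positive calls without replicate 1, 8 and 1 without replicate 2, and 20 and 3 without replicate 3, while the calls over all probes were 655, 831 and 2056. The named probes of 4CL4 and F3H kept their calls throughout. Without replicate 1 the calls of IFR2 (-0.95, adjusted p = 0.313), CHI1A (-1.25, adjusted p = 0.0806), FLS1 (-1.16, adjusted p = 0.0748) and CYP98A2 (-1.04, adjusted p = 0.0641) were lost. Without replicate 2 those of FLS1 (-0.88, adjusted p = 0.243), CYP98A2 (-0.82, adjusted p = 0.295) and CHI4A (0.78, adjusted p = 0.224) were lost. 4CL3 had sums of -1.02, -1.22 and 0.86, with replicate 3 on the other side, and was uncalled at -0.85 (adjusted p = 0.0975), though called at -1.32 without replicate 3 (adjusted p = 0.0221).

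Lipoxygenases start the oxidation of linolenic acid that leads to jasmonate. In the list of lipoxygenases, jasmonate and ethylene 18 of 53 probes were called negative, 2 positive and 33 not (37.7% called, against 11.7% of all tested probes), with a median of -0.42. Next to the 6 probes of LOC547835 (loxA), 4 of 8 LOXB1 probes were called (named probe -1.62 ± 0.351, sums -0.80, -1.33 and -1.17, adjusted p = 0.00189), as were both VLXC probes (named probe -1.60 ± 0.294, sums -2.23, -1.08 and -0.82, adjusted p = 0.000318), both kept in every setting. LOX7 had sums of -0.89, -0.98 and -3.02 and stood at -1.81 ± 0.502 (adjusted p = 0.0152), with 2 of 3 probes called. Replicate 3 carried this value, which was -1.07 without it (adjusted p = 0.173) and -2.06 without replicate 2 (adjusted p = 0.0663). LOX3 was at -1.42 ± 0.393 (sums -1.08, -1.56 and -1.58, adjusted p = 0.0145), and uncalled without replicate 1 (-1.55, adjusted p = 0.139) or replicate 2 (-1.40, adjusted p = 0.0839). The list kept 13, 11 and 14 negative calls without replicates 1, 2 and 3.

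Further genes of the same list were named by the rule. COI1, the jasmonate co-receptor, lay positive at 1.05 ± 0.290 (sums 0.82, 1.19 and 1.31, adjusted p = 0.0151). It was uncalled without replicate 1 (1.32), 2 (0.85) or 3 (0.98), at adjusted p = 0.0641, 0.189 and 0.059. AOS1, allene oxide synthase, which takes lipoxygenase products into jasmonate synthesis, had sums of -0.80, -1.18 and -0.81 and was uncalled at -0.95 (adjusted p = 0.0971), but called at -1.28 without replicate 3 (adjusted p = 0.0335). ACS1, an ACC synthase of ethylene formation, had sums in 2 replicates only, -1.31 and -0.31, and was uncalled at -1.08 (adjusted p = 0.536). Without replicate 3 it stood at -2.29 (adjusted p = 0.0205).

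**Figure D3:**
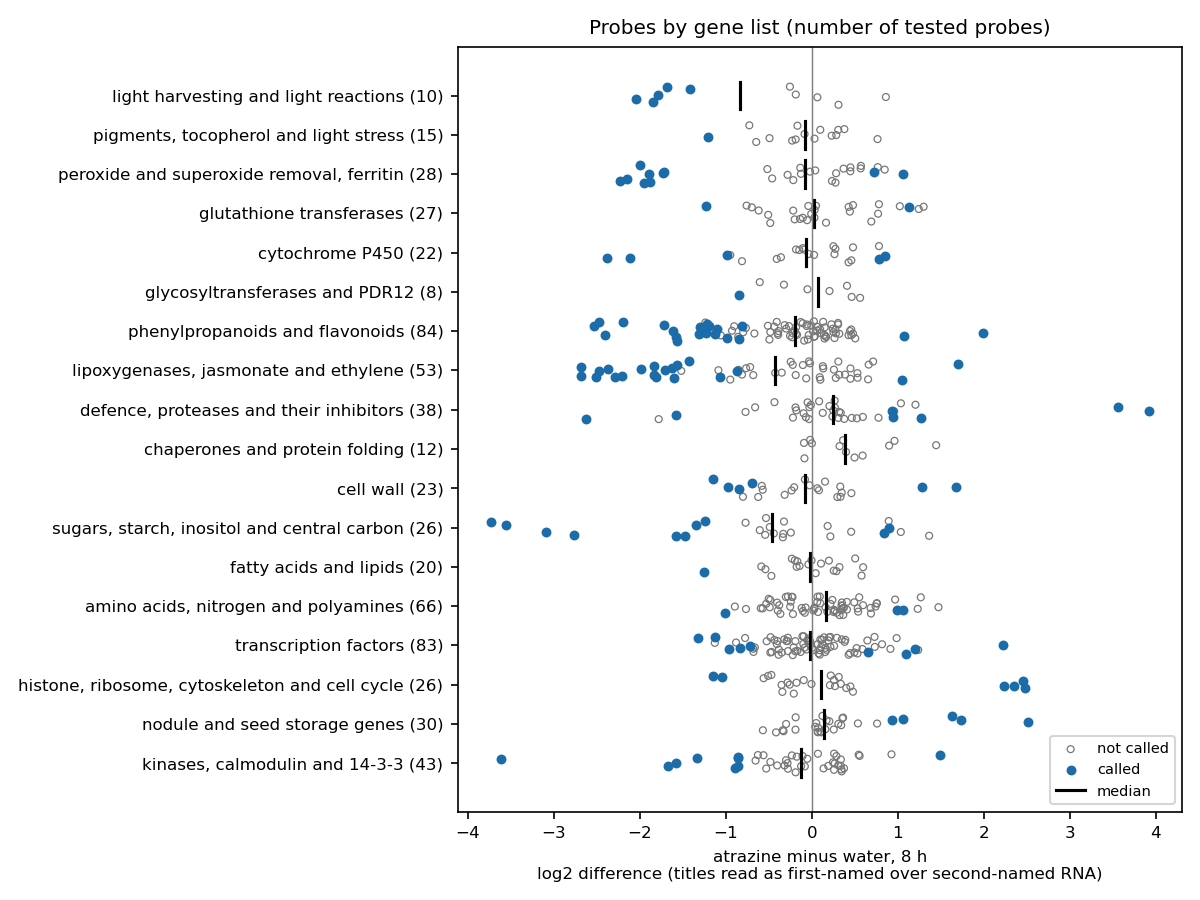
All tested probes of 18 gene lists, with atrazine minus water at 8 h (log2) across. Filled points were called, and black bars are list medians, which run from -0.83 for light harvesting to 0.38 for chaperones. The lowest probes are those of MIPS in the carbon list, down to -3.73, and of PK3 in the kinase list, at -3.61.

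Defence genes, proteases and their inhibitors had 5 positive and 2 negative calls among 38 probes and a median of 0.25. The 18.4% called compares with 11.7% of all tested probes and is near the 19.2% of probes with a gene symbol. The positive calls were 2 probes of PR-10, the CP3 probe and 2 of the 4 probes of VPE, a vacuolar processing enzyme (0.93 ± 0.262, sums 0.77, 0.85 and 0.81, adjusted p = 0.0171). The negative ones were KTI-2 and SARK, a senescence-associated receptor-like kinase (-1.58 ± 0.418, sums -0.70, -1.56 and -1.66, adjusted p = 0.0105). The other SARK probes were uncalled on the other side, at 0.31 and 0.34. The named SARK probe was uncalled without replicate 2 (-1.62, adjusted p = 0.0803) or 3 (-1.14, adjusted p = 0.0924), and that of VPE without replicate 1 (0.83, adjusted p = 0.206) or 2 (0.94, adjusted p = 0.144). VPE2 had sums of -2.96, -1.63 and 0.28 and was uncalled at -1.78 ± 1.17 (adjusted p = 0.374), whereas without replicate 3 it stood at -3.11 (adjusted p = 0.000958). Of 12 chaperone probes 0 were called by limma (2 at an unadjusted p under 0.05), with a median of 0.38 that was the highest of the lists. The DnaJ-type chaperone PM37 had even sums of 1.00, 1.68 and 1.57 and was uncalled at 1.45 (adjusted p = 0.0826), but passed with each loop solved alone (adjusted p = 0.0136) and with the direct arrays alone (adjusted p = 0.0148).

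Carbon metabolism gave 8 negative and 2 positive calls among 26 probes (38.5% called, against 11.7% of all tested probes), with a median of -0.46. The 4 MIPS probes were among the negative calls. GAPC1, the cytosolic glyceraldehyde-3-phosphate dehydrogenase of glycolysis, had sums of -1.20, -1.09 and -1.41 and a model value of -1.57 ± 0.261 (adjusted p = 9.89e-05), kept in every setting. The other GAPC1 probe was uncalled on the other side, at 0.18. CWINV, the cell wall invertase that splits exported sucrose, had sums of -2.05, -1.10 and -0.17 (model -1.48 ± 0.319, adjusted p = 0.00189). SUT1, a sucrose transporter, had sums of -2.06, -1.32 and -0.45 (model -1.34 ± 0.321, adjusted p = 0.00459). In both, replicate 1 lay farthest from 0 and replicate 3 closest. PGM, phosphoglucomutase, stood at -1.24 ± 0.393 (sums -1.38, -1.03 and -1.24, adjusted p = 0.0355). The positive calls were 2 probes of the malate dehydrogenase gene MDH-1, at 0.84 and 0.90, a gene outside the naming rule that was named after its values were seen; 0, 0 and 1 positive calls of the list were left without replicates 1, 2 and 3.

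Of these, GAPC1 and the 4 MIPS probes made up the 5 negative calls that remained without replicate 1, and the list had 5 and 7 negative calls without replicates 2 and 3. Without replicate 1, CWINV stood at -1.03 (adjusted p = 0.164), SUT1 at -1.04 (adjusted p = 0.128) and PGM at -1.15 (adjusted p = 0.126). Without replicate 2 they stood at -1.53 (adjusted p = 0.0588), -1.28 (adjusted p = 0.115) and -1.32 (adjusted p = 0.127), and PGM was uncalled without replicate 3 as well (-1.24, adjusted p = 0.114). BMY2, a beta-amylase, had sums of 1.01, 1.15 and 2.14 and was uncalled at 1.36 (adjusted p = 0.107), but passed with each loop solved alone (adjusted p = 0.021).

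Cell wall genes had 2 positive calls, both of XET1, and 4 negative ones among 23 probes (26.1% called, against 11.7% of all tested probes). The negative calls were 3 of the 5 probes of CEL12 (named probe -0.97 ± 0.276, sums -0.61, -1.55 and -0.95, adjusted p = 0.0176) and XTH1, of the same enzyme family as XET1 (-1.15 ± 0.384, sums -0.51, -0.23 and -1.98, adjusted p = 0.0484). No negative call of the list was left without any one replicate. CEL12 then stood at -1.24, -0.83 and -0.84 (adjusted p = 0.101, 0.167 and 0.0533) and XTH1 at -1.50, -1.46 and -0.47 (adjusted p = 0.124, 0.0932 and 0.425) without replicates 1, 2 and 3. The uncalled UDP-glucose dehydrogenase gene UGD1 was at -0.80 (adjusted p = 0.081), farther from 0 than its sums of -0.06, -0.45 and -0.26. Its dye term was called (-0.27, adjusted p = 0.0293).

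Of 20 probes for fatty acids and lipids 1 was called (5%, against 11.7% of all tested probes): FAD3C, an omega-3 desaturase, at -1.25 ± 0.333 (sums -1.08, -2.00 and -0.90, adjusted p = 0.011). It was uncalled without replicate 1 (-1.31, adjusted p = 0.0949) or 2 (-1.02, adjusted p = 0.184). DGAT1b, an acyltransferase of oil synthesis, was uncalled at 0.60 (adjusted p = 0.125). Of 66 probes for amino acids, nitrogen and polyamines 2 were called positive and 1 negative (4.55%, below the 11.7% of all tested probes). NRT1-3, a nitrate transporter, had sums of 1.25, 1.18 and 1.44 (model 1.07 ± 0.253, adjusted p = 0.00451). GS1GAMMA2, a cytosolic glutamine synthetase, had sums of 0.54, 1.11 and 0.70 (model 0.99 ± 0.239, adjusted p = 0.00512). DHPS1, dihydrodipicolinate synthase of lysine synthesis, had sums of -1.07, -0.88 and -1.07 (model -1.01 ± 0.206, adjusted p = 0.00106). Without replicate 1 all 3 were uncalled, at 1.02, 1.07 and -0.97 (adjusted p = 0.166, 0.0991 and 0.0758), and without replicate 2 GS1GAMMA2 was uncalled at 0.82 (adjusted p = 0.0874). The asparagine synthetase gene AS2, with sums of 0.42, 0.52 and 2.97, was uncalled at 1.47 (adjusted p = 0.17).

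Transcription factors had 4 positive and 5 negative calls among 83 probes (10.8%, near the 11.7% of all tested probes), with a median of -0.02. They had 1 positive and 0 negative calls without replicate 1, 0 and 2 without replicate 2, and 7 and 1 without replicate 3 (limma; 11 positive and 9 negative at an unadjusted p under 0.05 with all arrays). Beside DREB1-like, MYBZ2 stood at 1.1 ± 0.28 (sums 1.36, 0.91 and 0.50, adjusted p = 0.00765) and BZIP117 at 1.20 ± 0.363 (sums 1.56, 1.32 and -0.06, adjusted p = 0.026). The homeodomain gene HDL56 stood at -1.33 ± 0.372 (sums -0.82, -0.91 and -2.34, adjusted p = 0.0164) and MYB68 at -0.96 ± 0.292 (sums -0.99, -1.24 and -0.64, adjusted p = 0.0274). Each was lost without replicate 1, at 0.85, 1.00, -1.60 and -0.87 (adjusted p = 0.318, 0.206, 0.0943 and 0.222). BZIP117 and MYB68 were also lost without replicate 2 (1.03 and -0.90, adjusted p = 0.298 and 0.222), as was MYBZ2 (1.05, adjusted p just above the threshold at 0.05), and HDL56 without replicate 3 (-0.77, adjusted p = 0.166). WRKY27 had even sums of 1.17, 1.32 and 1.32 and was uncalled at 1.24 (adjusted p = 0.0578). It passed with each loop solved alone (adjusted p = 0.0172), the direct arrays alone (0.0193), array weights (0.027) and generalised least squares (0.0289).

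Kinases, calmodulins and 14-3-3 proteins had 8 negative calls and 1 positive call, GF14C, among 43 probes. The 20.9% called compares with 11.7% of all tested probes and is near the 19.2% of those with a gene symbol. PK6, a protein kinase, had sums of -1.42, -1.93 and -2.48 and a model value of -1.67 ± 0.313 (adjusted p = 0.000402), kept in every setting. LOC547791 (PK) stood at -1.33 ± 0.266 (sums -1.15, -2.25 and -0.54, adjusted p = 0.000798), while its other probe was uncalled at 0.29. The 14-3-3 gene SGF14n stood at -0.85 ± 0.258 (sums -0.90, -0.80 and -0.84, adjusted p = 0.0264) and NARK, the receptor kinase that limits nodule number, at -0.85 ± 0.261 (sums -0.81, -1.10 and -0.38, adjusted p = 0.0292). Without replicate 2 the calls of LOC547791 (PK) (-1.01, adjusted p = 0.0707), SGF14n (-0.87, adjusted p = 0.126) and NARK (-0.60, adjusted p = 0.336) were lost. Without replicate 1 SGF14n and NARK stood at -0.86 and -0.84 (adjusted p = 0.201 and 0.265), and SGF14n was also lost without replicate 3 (-0.83, adjusted p = 0.0872). The uncalled CDPK-GAMMA, a calcium-dependent protein kinase, was at 0.93 (adjusted p = 0.0946).

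Genes named from nodules and seeds had 5 positive and 0 negative calls among 30 probes in the limma model (6 and 1 at an unadjusted p under 0.05). The 16.7% called lies between the 11.7% of all tested probes and the 19.2% of those with a gene symbol. The 5 calls were the 3 NOD33 probes, GM2S-1, a 2S seed albumin (1.06 ± 0.248, sums 1.27, 1.76 and 0.64, adjusted p = 0.00383), and the early nodulin ENOD40B (0.93 ± 0.255, sums 0.87, 1.37 and 0.52, adjusted p = 0.0143). Without replicate 1 GM2S-1 and ENOD40B were uncalled at 1.02 and 1.03 (adjusted p = 0.116 and 0.153), and without replicate 2 at 0.86 and 0.75 (adjusted p = 0.151 and 0.137). The basic 7S globulin gene BG7S-1 had sums of 0.89, 1.16 and -0.71 and was uncalled at 0.76 (adjusted p = 0.176), but called at 1.30 without replicate 3 (adjusted p = 0.0053). Among 26 probes for histone, ribosome, cytoskeleton and cell cycle, 4 were called positive, all of H4, and 2 negative (23.1% called, against 11.7% of all tested probes and 19.2% of those with a gene symbol). The negative ones were the beta-tubulin gene TUBB3 (-1.04 ± 0.226, sums -0.67, -1.63 and -1.07, adjusted p = 0.00194) and the ubiquitin-conjugating enzyme gene UBC4 (-1.15 ± 0.318, sums -1.22, -1.54 and -1.20, adjusted p = 0.0146). Without replicate 2 both were uncalled (-0.69 and -1.15, adjusted p = 0.151 and 0.105), as was UBC4 without replicate 1 (-1.19, adjusted p = 0.124). The TATA-binding protein gene TBP1 was uncalled at -0.56 (adjusted p = 0.366).

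Because each sum runs through bentazon RNA, the effect at 8 h can be read as 2 steps, atrazine minus bentazon and bentazon minus water. The 2 steps share the bentazon RNA, and each shares an RNA with their sum, so they are given side by side without a test between them. Atrazine differed from bentazon for 1066 probes (6.25% of those tested), 536 positive (3.14%) and 530 negative (3.11%), and bentazon from water for 2774 (16.3%). Both of these pairs shared an array, with median standard errors of 0.212 and 0.211, against 0.286 for atrazine minus water. The median absolute difference over all tested probes was 0.277 for bentazon minus water and 0.329 for atrazine minus water. Their call counts are therefore not on an equal footing with that of atrazine minus water. The count between the herbicides depended on the model of the whole loop: with each replicate's loop solved alone 0 probes were called by limma (2359 at an unadjusted p under 0.05), and with the 3 direct arrays alone 5 were (2819 unadjusted). It was 277, 552 and 673 without replicates 1, 2 and 3.

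Of the 12 named genes with the largest differences on each side, 5 positive and all 12 negative ones were called for bentazon minus water. For atrazine minus bentazon 8 positive and 6 negative ones were called. Of all tested probes 16.3% and 6.25% were called in these 2 steps. The genes were chosen by the sum of both steps, so the counts only describe them. The values of both steps follow for some of the named genes. PR-10 had atrazine minus bentazon values of 2.76, 1.42 and 3.48 in the 3 replicates and bentazon minus water values of -0.31, 2.98 and -0.18, with model values of 2.64 ± 0.547 (adjusted p = 0.0024) and 0.92 (adjusted p = 0.271). NOD33 stood at 2.07 (adjusted p = 4.46e-05) and 0.44 (adjusted p = 0.355), and CAB3 at -1.61 (adjusted p = 1.18e-05) and -0.24 (adjusted p = 0.488). For PR-10 the replicates were not alike, since in replicate 2 the bentazon minus water value was above the atrazine minus bentazon value. SRC1 had -0.52, -0.36 and -0.56 between atrazine and bentazon and 2.18, 2.33 and 1.62 between bentazon and water (model -0.33 and 2.19). DREB1-like, with model values of 0.09 and 2.14, and CYP93E1, with -0.16 and -2.22, were called for bentazon minus water (adjusted p = 5.53e-05 and 2.75e-06) and not for atrazine minus bentazon (adjusted p = 0.923 and 0.808). MIPS was called in both steps, at -2.16 (adjusted p = 0.000676) and -1.57 (adjusted p = 0.00811).

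**Figure D4:**
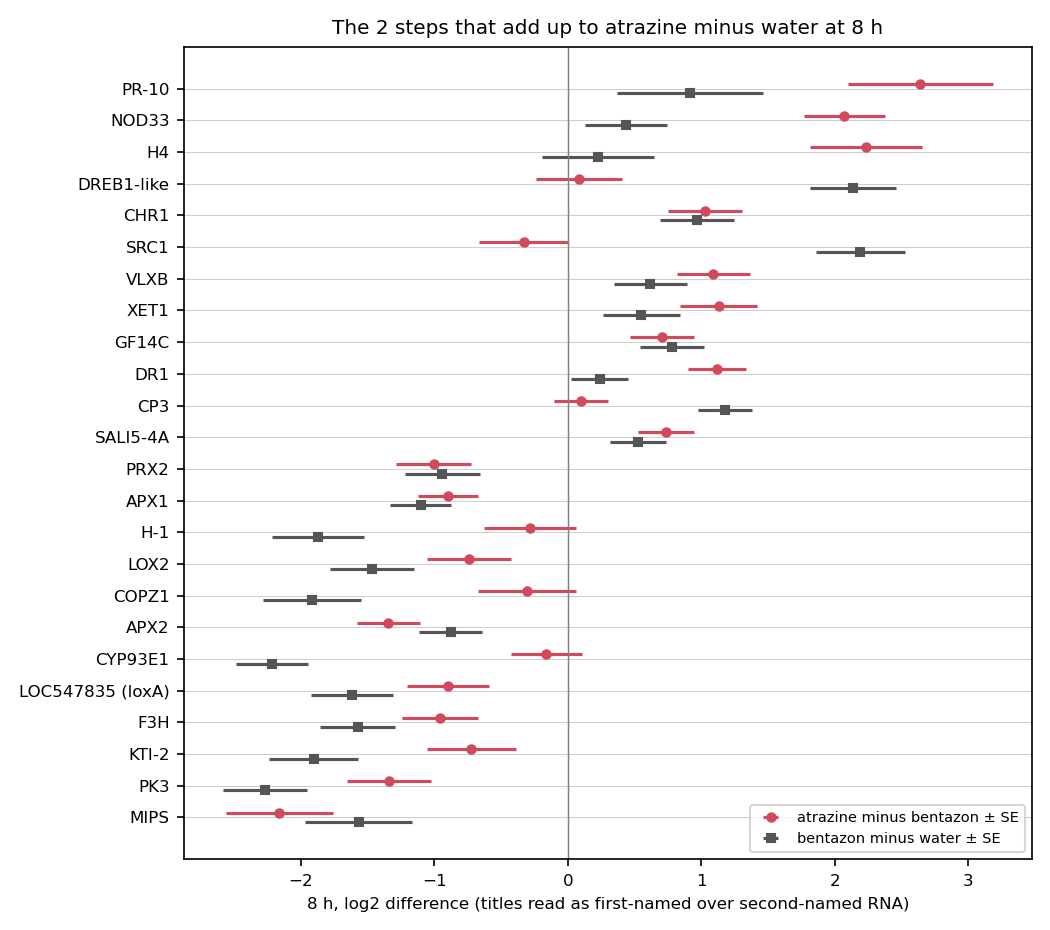
The 24 named genes with the largest differences from water, with atrazine minus bentazon (red) and bentazon minus water (grey) at 8 h, in log2 units with standard errors. The red step is near 0 for DREB1-like, CP3 and CYP93E1, and the grey one for H4 and DR1.

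By size, the 5 named genes farthest on the positive side between atrazine and bentazon were PR-10, MMP2, H4, NOD33 and ADC, and the 5 on the negative side were GSTL3, MIPS, GSTU30, CAB3 and LOXB1. GSTL3, a lambda-class glutathione transferase, had atrazine minus bentazon values of -2.01, -3.92 and -2.37 (model -2.83, adjusted p = 1.09e-06), while its sums against water were -0.21, 0.42 and -0.16. It was thus uncalled for atrazine against water (-0.10, adjusted p = 0.916) and called for bentazon against water at 2.73 (adjusted p = 2.75e-06). GSTU30 showed the same arrangement at -1.66 (adjusted p = 0.00833), -0.22 (adjusted p = 0.851) and 1.45 (adjusted p = 0.0119). MMP2, a matrix metalloproteinase, had atrazine minus bentazon values of 1.26, 0.89 and 4.61 (model 2.39, adjusted p = 0.0124) and sums against water of -0.39, -0.24 and 3.45, so that replicate 3 alone lay on the positive side. ADC, arginine decarboxylase of polyamine synthesis, had 1.49, 0.93 and 2.54 (model 1.43, adjusted p = 0.00723), and the LOXB1 probe with the largest difference had -0.30, -0.87 and -2.71 (model -1.52, adjusted p = 0.00693). None of these 10 differences was called with each loop solved alone or with the direct arrays alone.

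Leaving out a replicate changed several of these 10. Without replicate 1, MIPS (-1.77, adjusted p = 0.11), MMP2 (2.81, adjusted p = 0.0814), ADC (1.48, adjusted p = 0.106) and GSTU30 (-1.59, adjusted p = 0.167) were uncalled. GSTU30 was uncalled without replicate 2 as well (-1.05, adjusted p = 0.185). Without replicate 3, PR-10 (1.99, adjusted p = 0.0849), MMP2 (1.22, adjusted p = 0.184), ADC (1.04, adjusted p = 0.123) and LOXB1 (-0.81, adjusted p = 0.19) were uncalled. NOD33, H4, CAB3 and GSTL3 stayed called with any one replicate left out.

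The state at 8 h was then set against earlier times. Atrazine against water was called for 580 probes (3.4%) after 1 h, 894 (5.24%) after 2 h, 3059 (17.9%) after 4 h and 1995 after 8 h. At 4 h both RNAs shared an array, and the median standard error was 0.213 there against 0.286 at 8 h, so the counts are not on an equal footing. Of the 8 h calls 1303 (65.3%) were called on the same side at 4 h, which is 42.6% of the 4 h calls, and 1 probe was called on opposite sides. These estimates come from 1 model of the loop with a common dye term, in which 4 h and 8 h water RNA met on an array. Their errors are therefore not independent, and the overlap does not compare independent sets of calls.

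The change from 4 to 8 h was tested as a difference of the atrazine effects. It was called for 7 probes (0.041%), 1 positive (0.00586%) and 6 negative (0.0352%), with 1415 at an unadjusted p under 0.05, and none of the 7 carries a gene name. The median standard error of this change was 0.333, and the count was 3, 0 and 0 without replicates 1, 2 and 3, so that changes of about 1 log2 unit were hard to detect. None of the 24 named genes with the largest differences passed this test.

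The values at each time are given for some of the named genes as a description. MIPS stood at -0.28, -1.87, -3.25 and -3.73 at 1, 2, 4 and 8 h, and COPZ1 at -0.52, -1.76, -3.16 and -2.22. XET1 was at 1.02, 2.22, 3.09 and 1.68 in the same order, so that its value at 8 h was smaller than at 4 h (change -1.41 ± 0.449, adjusted p = 0.305). PR-10 was at 1.20, 0.97, 1.85 and 3.56 (change from 4 to 8 h 1.71, adjusted p = 0.613), and APX2 at 0.50, -0.71, -1.32 and -2.22 (change -0.91, adjusted p = 0.492). CAB3 was at -0.56, -0.28, -0.34 and -1.84. It was called at 8 h and not at 4 h (adjusted p = 0.287), and its change of -1.50 ± 0.331 came close to the threshold without passing it (adjusted p = 0.0567). Within its list, 0 of 10 light-reaction probes were called for the change by limma (5 at an unadjusted p under 0.05). ENOD40B, with -0.34 at 4 h and 0.93 at 8 h (change 1.27, adjusted p = 0.0618), was also just outside it.

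**Figure D5:**
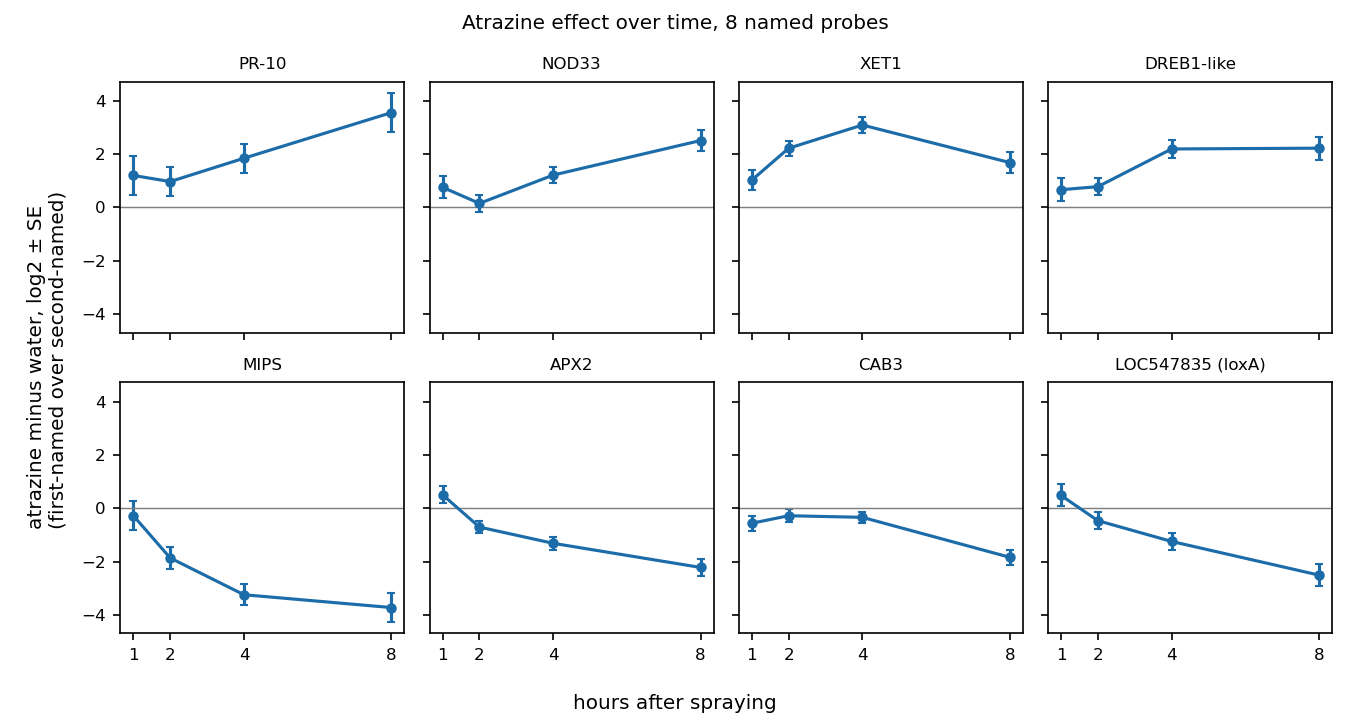
Atrazine minus water (log2 ± standard error of the loop model) at 1, 2, 4 and 8 h for 8 genes. CAB3 stays between -0.28 and -0.56 up to 4 h and stands at -1.84 at 8 h, MIPS has reached -3.25 by 4 h, and XET1 has its highest value, 3.09, at 4 h.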

How the data were processed

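For every array the authors deposited a single log ratio per probe, which is treated as a log2 value. Per the labels, Trizol extracts were labelled through aminoallyl nucleotides, the first-named RNA with Cy3 and the second-named with Cy5. The sources used here give neither numerator nor log base, background correction or normalization. The design text mentions technical repeats with dye swaps, but each pairing appears once per biological replicate and in 1 orientation. Whether repeats were averaged is not known, and if they were, the dye term would not hold. Intensities were not used, so the number of arrays limits the precision. Gene symbols came from the platform annotation, with 523 of 527 genes updated through the Glycine_max_v4.0 gene table. No probe or gene sequences were at hand.

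Each probe was fitted by least squares to 36 arrays (11 RNA differences, 1 dye term, 24 residual degrees of freedom) with exact contrasts for its pattern of missing values. The moderation of variances used limma 3.58.1 (R 4.3.3, prior degrees of freedom 7.56), and p-values are 2-sided and adjusted by Benjamini-Hochberg over 17062 probes. In a complete loop the direct sum carries 83.3% of a replicate's estimate and the rest of the loop the remainder. The scripts were tested on simulated data. Python 3.11.15 with matplotlib 3.10.9 made the figures. The comparison, gene lists and tests were chosen with earlier results of these data known.

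Named genes are the 12 largest called differences on each side with all replicate sums on the side of the model (1 probe per gene, smallest p). To these were added up to 4 further called genes per list, the uncalled gene with the largest difference per list, genes with at least 3 probes of which all or all but 1 were called on 1 side, the 5 largest differences between the herbicides on each side, PDR12, and 2 unnamed probes per side with the smallest p.

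Whether replicate numbers pair samples beyond the shared RNA of a loop could not be settled. Deviations of same-numbered arrays without a shared RNA had a median correlation of 0.00949 (162 pairs, -0.409 to 0.425), and with a shared RNA -0.151 (36 pairs). The arrays set treatments against each other in different orders, so positive and negative correlations can cancel in such a median.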

Additional observations from a re-analysis of the deposited data

Results flagged for a closer look

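The atrazine effect differed between 8 h and 4 h, by the test of that difference in the limma model, for 3 probes without a gene name that were chosen after their values were seen. Gm11035cDNA18kA changed by 2.02 ± 0.334 log2 units (SE, adjusted p = 0.011), standing at 2.50 at 8 h and 0.49 at 4 h, with replicate sums of 3.08, 2.70 and 2.20 at 8 h. Gm18533cDNA18kA changed by -1.85 ± 0.312 (adjusted p = 0.011), standing at 0.87 at 8 h and 2.72 at 4 h, and was also uncalled with direct arrays (adjusted p = 0.0578) and scaled arrays (0.129). Gm15724cDNA18kA changed by -1.63 ± 0.281 (adjusted p = 0.011) and stood at -1.21 at 8 h and 0.42 at 4 h. None of the 3 changes was called without replicate 2 (adjusted p = 0.126, 0.525 and 0.522) or without replicate 3 (0.211, 0.211 and 0.137), and without replicate 1 the changes of Gm11035cDNA18kA (0.17) and Gm15724cDNA18kA (0.176) were not called.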

How the results depend on the processing

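Atrazine against water at 8 h gave 1995 calls, and between 1767 and 2428 without the dye term, with a replicate block (1909), with scaled or centred arrays, a robust prior, generalised least squares, complete probes, no filter, or without the 3 arrays that closed their loop least well (chosen after seeing the data). It gave 1256 calls with each loop solved alone, 1302 with the direct arrays alone and 4714 with array weights. Leaving out 1 replicate gave 655 to 2056. For the change from 4 to 8 h, the 7 calls became 165 with each loop alone, 21 with direct arrays, 12 with scaled arrays, 19 with centred arrays, 201 with array weights, 16 with a robust prior, 44 with generalised least squares, 3 on complete probes, 19 without the filter, 3 without those 3 arrays, and 0 to 3 without 1 replicate (1179 and 1094 at an unadjusted p under 0.05 without replicates 2 and 3). With the replicate block there were 5. For atrazine minus bentazon, the 1066 calls became 0 and 5 with loops alone and direct arrays, 4729 with array weights, 277 to 673 without 1 replicate, 949 with the block and 472 at 1 log2 unit or more. Uncalled values that changed side were GSTL3 with direct arrays (0.0176) and, over the omissions of 1 replicate, MMP2 (-0.0312 to 1.91), GSTL3 (-0.29 to 0.14) and GSTU30 (-0.66 to 0.24). Of 79 named called probes 28 kept their call in all settings in which they were tested; 39 lost it without replicate 1, 39 without replicate 2, 11 without replicate 3, 21 with each loop alone, 20 with direct arrays, 6 with scaled arrays and 3 with the block (CHLH, IF7GT and XTH1, adjusted p = 0.0582, 0.0564 and 0.0553). Leaving out a replicate also leaves fewer arrays. Atrazine against water then gave 655, 831 and 2056 calls without replicates 1, 2 and 3. The cause of these shifts was not tested.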

Other observations

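Most called probes have no gene name here. The 2 unnamed probes with the smallest p on each side had all replicate sums on their side: Gm03618cDNA18kA had 4.31, 5.20 and 3.37 (model 4.36 ± 0.410, adjusted p = 2.93e-08) and Gm03194cDNA18kA had 4.08, 4.35 and 2.96 (3.60 ± 0.336, adjusted p = 2.93e-08). On the negative side Gm16724cDNA18kA had -5.76, -5.84 and -3.71 (-4.80 ± 0.493, adjusted p = 1.07e-07) and Gm18682cDNA18kA had -1.96, -2.57 and -1.76 (-2.35 ± 0.265, adjusted p = 5.55e-07). Replicate 3 was the closest to 0 in all 4.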
